A study of Homo sapiens with 3 samples.

Results

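The genes described here are the targets and regulators of ATF4 and of the unfolded protein response in HT29 cells, an established line of human colon adenocarcinoma. The list holds 37 genes out of 21610 with a value on the arrays. They were chosen by name from knowledge of the pathways, with earlier results of these data known. They fall into an amino acid arm of 18 genes around ATF4 and an arm of 19 genes of the endoplasmic reticulum (ER). HT29 was harvested from tissue culture polystyrene (TCP, the sample titled 2D), from chitosan membranes (CS, titled chitosan) and from membranes of chitosan grafted with hyaluronan (CSHA, titled chitosan_HA), and the comparison was meant to set the gene signatures of the substrates side by side. The groups shared the cell line, no other treatment is named in the labels, and the culture time of these samples is not given in the sources used here. Total RNA of each substrate was labelled with Cy3 and hybridized to 1 array, so the study has 3 arrays, no replicate of any substrate and no test of a difference between substrates.

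Cells slow translation when amino acids run short or when unfolded proteins build up in the ER, because kinases such as PERK and GCN2 phosphorylate the initiation factor eIF2. The mRNA of ATF4 is then translated more, and the ATF4 protein induces genes for amino acid synthesis, amino acid import and tRNA charging, together with DDIT3 (CHOP). In the ER, ATF6 and the IRE1 and XBP1 branch induce chaperones, disulfide isomerases and the machinery that sends misfolded proteins to the proteasome. Secretory epithelia such as that of the colon depend on this system to fold mucins. ATF4, XBP1 and ATF6 are controlled largely at translation, splicing and cleavage, which an mRNA array does not measure.

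Every value is a difference between single arrays on the log2 scale. The processed signal of a spot, which the scanner software had corrected for background, was divided by the 75th percentile of its array, which reached 354 on TCP, 423 on CS, and 337 for CSHA, and the brightest probe stood for a gene. A probe well above background is one that the software flagged so, and the lowest such signal was 21.1 to 24.1. Probes printed 10 times on each array had a median SD among spots of 0.05 (TCP), 0.05 (CS) and 0.06 (CSHA), and of 0.15 to 0.17 for the dimmest of them. This spot SD, taken at the brightness of each probe and combined over the arrays compared, is given as the error below. It holds no difference between cultures and is therefore smaller than the error of a substrate effect. The 8 epithelial markers CDH1, EPCAM, KRT8, KRT18, KRT20, VIL1, CDX2 and CDH17 were well above background on all arrays, with summed signals of 328850, 360156 and 336105 on TCP, CS and CSHA, most of it from KRT18. Of these markers 7 were higher on CS and 7 on CSHA than on TCP after scaling, where 56.8% and 61.7% of all genes were. Their medians were 0.19 and 0.52, where all genes had 0.04 and 0.13, and KRT20 (0.90) and CDX2 (0.88) led on CSHA. Of 7 stromal markers, VIM and SPARC were just above background on TCP and 0 were on CS or CSHA. All 4 immune markers were above background on TCP and CSHA and 3 on CS, with summed signals of 1114, 1729 and 1934, most of it from CD14 and CD68, and the 2 endothelial markers summed to 96.7 to 101. HT29 is a cell line, and where the stromal, immune and endothelial marker signals came from was not tested. In bulk RNA, fewer cells that express a gene and less RNA per cell cannot be told apart.

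All 37 genes had a probe, and 36 were well above background on all 3 arrays. The exception was ERN1, which encodes the sensor IRE1 and was well above background only on CS, with signals of 15.5 (TCP), 27.1 (CS) and 15.0 (CSHA). No difference is given for ERN1, because its CS signal did not clear the detection limit of the other arrays after scaling.

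Between CS and TCP the genes of both arms were close to each other. The amino acid arm had a median log2 difference of 0.00 and the ER arm one of 0.05, where all 14462 genes compared had a median of 0.04. Of the 18 amino acid genes 9 were higher on CS, and of the 18 ER genes with a value 11 were higher, where 56.8% of all genes were higher. Only ATF6B passed 2-fold on the higher side and 0 members did on the lower, against 1.36% and 1.92% of all genes. Among genes above background on every array, as the 36 members were, these shares were 0.623% and 0.593%. At 1.5-fold, VLDLR joined ATF6B on the higher side and 0 members were lower, against 4.11% and 5.03% of all genes.

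Between CSHA and TCP the arms lay apart. The amino acid arm had a median of -0.17 and the ER arm one of 0.19, a difference of -0.36 between the arms, while all 14624 genes compared had a median of 0.13. When the arrays were scaled to spike-in RNA, both medians were positive, at 0.26 for the amino acid arm and 0.61 for the ER arm, and that of all genes was 0.56. Counted against the median of all genes, the amino acid arm was therefore at -0.30 under either scaling and the ER arm at 0.06. Of the amino acid genes 6 of 18 were higher on CSHA than on TCP, and of the ER genes 12 of 18, where 61.7% of all genes were higher. At least 2-fold lower were 3 amino acid genes (PHGDH, SLC3A2 and DDIT3) and 1 ER gene (HYOU1), against 3.98% of all genes, and ATF6B alone was higher by that much, against 3.02%. With the spike-in scaling 0 members were at least 2-fold lower, against 1.25% of all genes, and 3 at least 2-fold higher, against 12.2%. Another background correction (normexp) and the deposited values each left 2 lower, against 2.0% and 2.24% of all genes. At 1.5-fold, 5 amino acid and 2 ER genes were lower, against 11.2% of all genes, and 1 and 2 were higher, against 11.5%. Among the 13486 genes measured above background on every array, as the 36 members were, those past 2-fold on CSHA numbered 263 on the higher side and 445 on the lower, out of 442 and 582 with dimmer genes included.

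Between the membranes, CSHA against CS, the amino acid arm had a median of -0.25 and the ER arm one of 0.06, where all 14597 genes had 0.07. Scaling to spike-in RNA turned the amino acid median to 0.13, with all genes at 0.45. Higher on CSHA than on CS were 5 of 18 amino acid genes and 10 of 18 ER genes, where 58.5% of all genes were higher. PHGDH passed 2-fold on the lower side and ATF6B on the higher, against 2.15% and 2.27% of all genes. Among genes above background on every array, these shares were 1.51% and 0.801%. With the spike-in scaling PHGDH was at -0.67, which left 0 members at least 2-fold lower and 3 higher, against 0.811% and 6.83% of all genes. At 1.5-fold, 3 amino acid genes and 1 ER gene were lower and 0 and 3 were higher, against 7.33% and 7.68%. The comparisons with TCP share that array, and those with CSHA share the CSHA array, so the values of a gene in different comparisons are not independent.

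**Figure D1:**
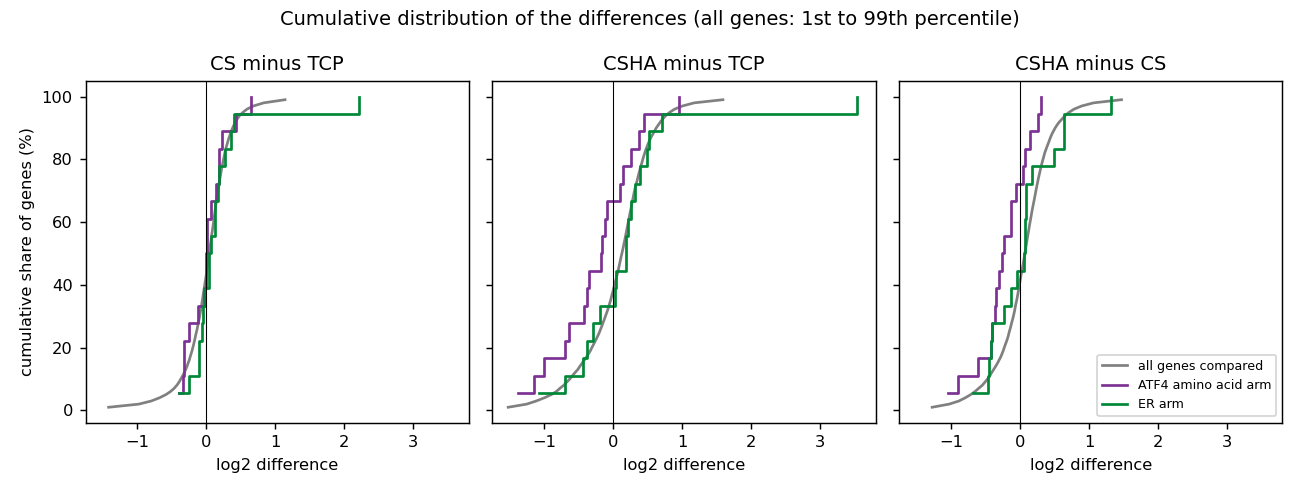
Cumulative share of genes (y axis, %) against the log2 difference (x axis) for each pair of arrays, for all genes compared (grey), the amino acid arm (purple) and the ER arm (green). The arms run close together for CS minus TCP, and for CSHA minus TCP the amino acid arm lies to the left, with a median of -0.17 against 0.19 for the ER arm; scaling to spike-in RNA moves both curves and the grey one to the right by the same amount and turns the former median to 0.26.

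Of the transcription factors of the amino acid arm, only DDIT3 passed 2-fold in the main setting, and 0 did with the spike-in scaling, by which ATF4 was at 0.53, CEBPB at 0.57 and ATF5 at 0.26 on CSHA against TCP. ATF4 itself had processed signals of 81291 (TCP), 101241 (CS) and 82789 (CSHA). After scaling, its differences from TCP were 0.06 for CS and 0.10 for CSHA, with spot SDs of 0.05 and 0.06. The gene has 4 annotated pseudogenes that its probe could also bind. CEBPB, which dimerizes with ATF4, was printed 10 times, with scaled log2 means of 5.06 ± 0.04 on TCP, 5.06 ± 0.02 on CS and 5.19 ± 0.04 on CSHA (SD among 10 spots). ATF5, which is translated under the same control as ATF4, was at 0.24 ± 0.11, 0.21 ± 0.06 and 0.08 ± 0.06 in the same order. For ATF5 the SD of TCP overlapped those of both CS and CSHA. DDIT3 encodes CHOP, a factor linked to cell death under lasting ER stress. Its signal reached 233 on TCP, 211 on CS, and 110 for CSHA, a difference of -0.40 ± 0.12 on CS and of -1.01 ± 0.12 on CSHA (spot SD). DDIT3 was thus lower on both membranes and lowest on CSHA, where its 2.01-fold fall stood just past the 2-fold line. With the spike-in scaling DDIT3 was at -0.58 on CSHA.

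TRIB3, an ATF4 target that restrains ATF4, and SESN2, one that restrains mTORC1 signaling, had their lowest values on CSHA. The TRIB3 signal reached 18912 on TCP, 20848 on CS, and 13871 for CSHA, or -0.11 on CS and -0.38 on CSHA after scaling. For SESN2 the signals were 341, 324 and 200, or -0.33 and -0.70. CHAC1, which degrades glutathione, gave 752, 897 and 532, or 0.00 on CS and -0.43 on CSHA. Each was lower on CSHA by more than its spot SD of 0.06 to 0.11, but with the spike-in scaling TRIB3 was at 0.05, CHAC1 at 0.00 and only SESN2 still lower, at -0.27. The dimmer CHAC1 probe was not well above background on CSHA and was lower there by at least 1.29 on the log2 scale. CTH, which makes cysteine, went the other way, with signals of 734, 1182 and 903 and differences of 0.43 on CS and 0.37 on CSHA.

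Serine synthesis starts with PHGDH, and this enzyme had the largest fall of all members. Its signal reached 2742 on TCP, 2604 on CS, and 1004 for CSHA. PHGDH differed by -0.33 ± 0.06 for CS and by -1.38 ± 0.07 for CSHA relative to TCP, a 2.60-fold fall, and by -1.05 ± 0.06 on CSHA relative to CS. After scaling, its log2 values stepped down from 2.95 on TCP to 2.62 on CS and 1.57 on CSHA. PHGDH ranked number 209 among the falls on CSHA, and with the spike-in scaling it was at -0.95. The next enzyme, PSAT1, gave 8437, 11779 and 7090, or 0.23 for CS and -0.18 for CSHA. Its dimmer probe gave 601, 678 and 269, or -0.08 and -1.09. The last enzyme, PSPH, gave 4583, 6217 and 5949, or 0.18 and 0.45. The steps of serine synthesis did not share a direction on CSHA in the main setting, whereas by the brightest probes and the spike-in scaling only PHGDH was below TCP. PSAT1 and PSPH have 4 and 1 annotated pseudogenes. SHMT2 and MTHFD2, which carry the carbon of serine into the mitochondrial folate cycle, were at 0.01 and 0.14 on CS and at -0.35 and -0.09 on CSHA. MTHFD2 was printed 10 times and had scaled means of 4.47 ± 0.02 on TCP, 4.60 ± 0.03 on CS and 4.38 ± 0.02 on CSHA (SD among spots), so its small differences exceeded the spread on an array. With the spike-in scaling SHMT2, MTHFD2 and ASNS turned positive on CSHA against TCP, at 0.08, 0.34 and 0.31. ASNS, which makes asparagine, was at 0.01 on CS and -0.12 on CSHA. MTHFD2 has 7 annotated pseudogenes and ASNS 5.

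Among the amino acid transporters, the members of one heterodimer were both lower on the membranes. SLC3A2 encodes 4F2hc (CD98), the heavy chain that brings SLC7A5 (LAT1) and SLC7A11 (xCT) to the cell surface. Its signal reached 2882 on TCP, 2879 on CS, and 1236 for CSHA, or -0.26 ± 0.06 on CS and -1.15 ± 0.07 on CSHA. For SLC7A5, which imports leucine and other large amino acids and has 2 annotated pseudogenes, the signals were 4861, 4591 and 2970, or -0.34 and -0.64. In contrast, SLC7A11, which imports cystine, gave 6938, 9447 and 7909, or 0.19 and 0.26. With the spike-in scaling SLC3A2 was at -0.72 on CSHA. VLDLR, a lipoprotein receptor that ATF4 induces, was the highest amino acid gene. Its signals of 40.2, 75.01 and 73.8 lay near the detection limit, and its differences were 0.64 ± 0.23 on CS and 0.95 ± 0.24 on CSHA. The other VLDLR probe was not well above background on any array.

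**Figure D2:**
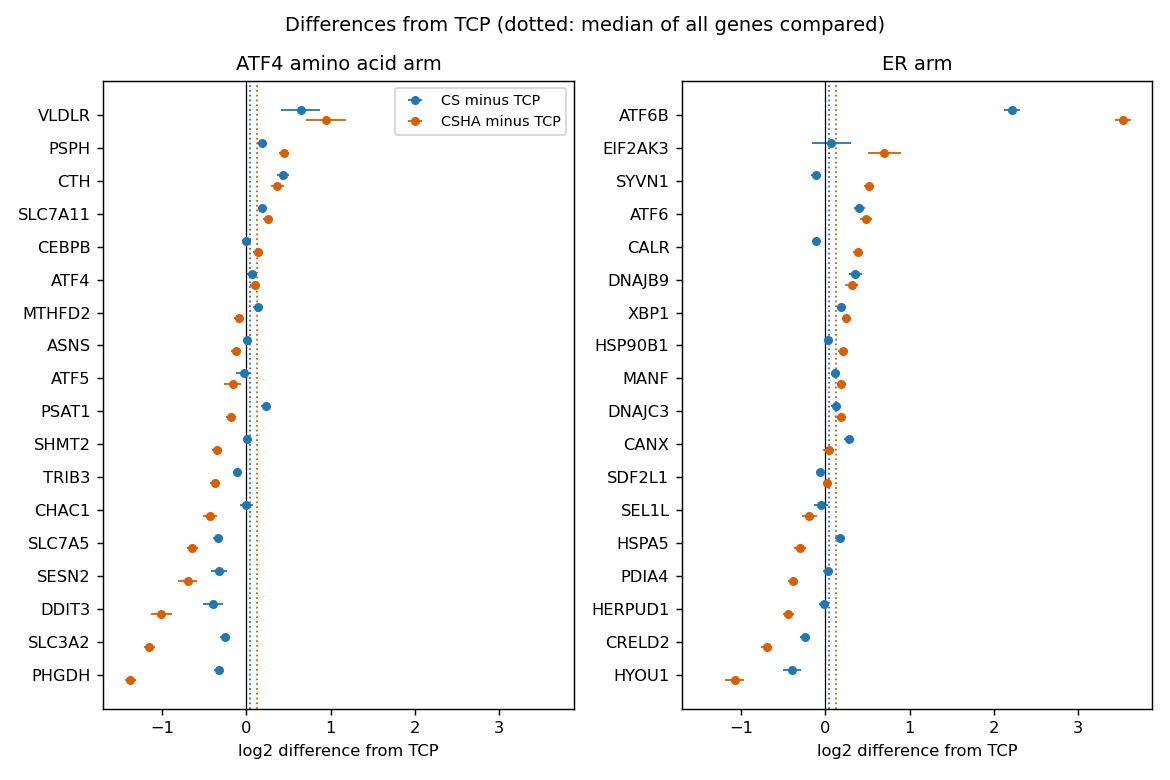
Log2 difference from TCP (x axis) of each gene on CS (blue) and CSHA (orange), with bars of 1 spot SD, which cover the spots of an array and not cultures; dotted lines mark the medians of all genes, 0.04 on CS and 0.13 on CSHA, and ERN1 has no value. Most genes lie within 0.5 of 0 on CS, and on CSHA PHGDH, SLC3A2, DDIT3 and HYOU1 lie beyond -1 and ATF6B at 3.53.

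The ER arm was led by a sensor. ATF6B, the paralog of ATF6, had a processed signal of 168 (TCP), 934 (CS) and 1856 (CSHA). Each array was thus well apart from the next, with differences of 2.22 ± 0.10 on CS and 3.53 ± 0.10 on CSHA, or 4.65-fold and 11.6-fold, and of 1.32 ± 0.07 between the membranes. It ranked number 20 among the rises on CS and number 4 on CSHA. ATF6B rests on 1 probe (NM_004381), printed once on each array, and what else this probe could bind and where in the transcript it lies were not tested. Over all settings, its difference was 1.89 to 2.27 for CS and 3.03 to 3.96 for CSHA. Of the protein-coding genes on either side of it, TNXB was at 0.04 and 0.27. FKBPL, which was dim with signals of 76.8, 85.8 and 35.9, was at -0.10 and -1.03. A cause of the rise of ATF6B was not tested. ATF6 itself, which is cleaved in the Golgi under ER stress to free a transcription factor, gave signals of 1058, 1667 and 1410. Its differences were 0.40 ± 0.07 for CS and 0.49 ± 0.07 for CSHA. EIF2AK3, which encodes PERK, the ER kinase upstream of ATF4, was dim, with signals of 83.1, 104 and 129. Its difference was 0.07 ± 0.23 on CS, within the spot SD, and 0.70 ± 0.20 on CSHA. Without ATF6B, the ER arm had a median of 0.03 on CS and of 0.18 on CSHA.

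XBP1, the factor whose mRNA is spliced by IRE1, was printed 10 times. Its scaled log2 means were 5.89 ± 0.02 on TCP, 6.07 ± 0.02 on CS and 6.14 ± 0.06 on CSHA (SD among 10 spots), so it was higher by 0.19 and 0.25 on the membranes. The array measures XBP1 mRNA as a whole and not its spliced form, and 1 pseudogene is annotated.

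**Figure D3:**
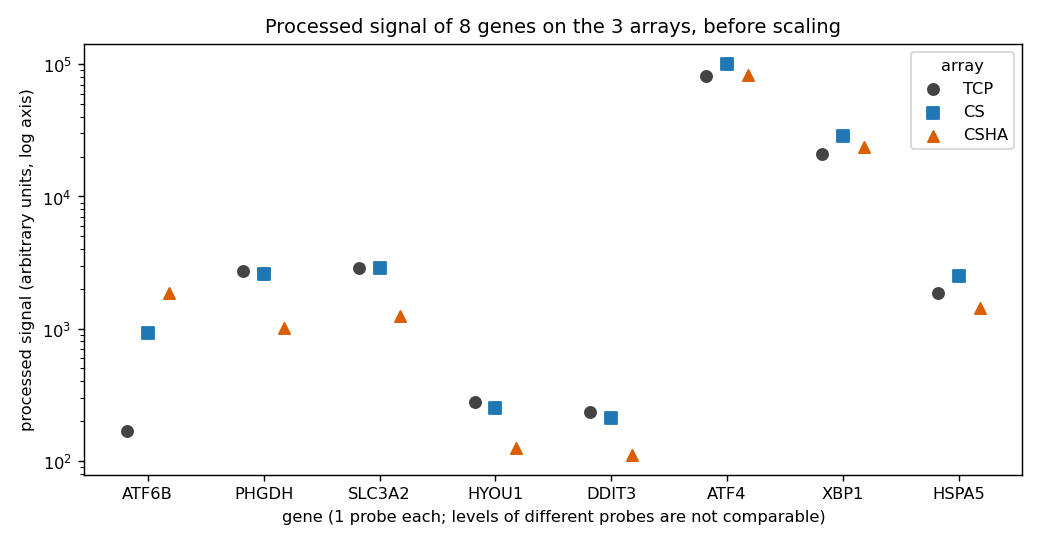
Processed signal before scaling (y axis, log axis) of 8 genes on the TCP (circles), CS (squares) and CSHA (triangles) arrays, with 1 value per array and no error bars; levels of different genes cannot be compared. ATF6B climbs from 168 to 1856, while CSHA is the lowest array for PHGDH, SLC3A2, HYOU1 and DDIT3.

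Of the 9 chaperones and cochaperones, 6 were higher on CS and 6 on CSHA than on TCP, with medians of 0.03 and 0.04, where 56.8% and 61.7% of all genes were higher. HSPA5 (BiP), the main ER chaperone and the usual marker of the response, had signals of 1848 (TCP), 2482 (CS) and 1435 (CSHA). It differed by 0.17 ± 0.06 for CS and by -0.30 ± 0.07 for CSHA, so CS was the highest array and CSHA the lowest. HSPA5 has 1 annotated pseudogene. HYOU1, the nucleotide exchange factor of HSPA5, gave 278, 253 and 126, or -0.40 ± 0.10 and -1.08 ± 0.11, a 2.11-fold fall on CSHA. PDIA4, a disulfide isomerase, was at 0.03 and -0.38. HSP90B1 (GRP94) and CALR were higher on CSHA, at 0.21 and 0.38, and at 0.03 and -0.11 on CS. Their signals on TCP, CS and CSHA were 43229, 52829 and 47681 for HSP90B1 and 43256, 47906 and 53767 for CALR. By its dimmer probe HSP90B1 was at -0.01 on CS and -0.27 on CSHA, so its direction on CSHA depended on the probe. CANX, the membrane-bound partner of CALR in folding glycoproteins, was at 0.28 and 0.04, and at 0.01 and 0.16 by its other probe. The cochaperone DNAJB9 gave 786, 1202 and 930, or 0.36 and 0.31. The cochaperones DNAJC3 and SDF2L1 were at 0.13 and -0.06 on CS and at 0.18 and 0.03 on CSHA. The spike-in scaling added 0.43 to each CSHA value, by which HSPA5 and PDIA4 were higher on CSHA than on TCP and HYOU1 was still lower, at -0.65.

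ER-associated degradation was represented by HERPUD1, SEL1L and SYVN1, parts of the ubiquitin ligase complex that retrieves misfolded proteins. SYVN1, the ligase itself, had signals of 2310, 2552 and 3153, or -0.11 on CS and 0.52 on CSHA. HERPUD1, a scaffold strongly induced by ER stress, gave 8209, 9708 and 5776, or -0.01 and -0.44. Ligase and scaffold thus differed in sign on CSHA, although with the spike-in scaling HERPUD1 was at -0.01, within its spot SD. SEL1L had a probe at -0.05 and -0.19 and a dimmer one at 0.11 and 0.19, and a dimmest one not well above background. The luminal factors CRELD2 and MANF, both induced through ER stress elements, also parted on CSHA. CRELD2 had signals of 3913, 3941 and 2300, or -0.25 ± 0.06 and -0.70 ± 0.06. MANF was at 0.12 and 0.19.

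The promoters of the arms were searched for the elements through which they are known to respond, in RefSeq sequence of GRCh38.p14 from 250 bases before to 50 bases after each annotated gene start. The table held 49 promoters of 34 members, and PSPH, SHMT2 and SLC7A11 had none. The ER stress response element, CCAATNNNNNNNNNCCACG, was sought on both strands. It was present in 8 of 24 promoters of the ER arm, belonging to 6 genes, in 0 of 25 of the amino acid arm and in 0.0769% of all 35116 promoters. The consensus was defined on ER chaperone genes, so its presence here is no result of these arrays. The holders were HSPA5, HSP90B1, CALR, CANX, XBP1 and CRELD2. Their differences on CSHA had both signs, from -0.70 for CRELD2 to 0.38 for CALR. HSP90B1 held the element at 2 places, and CANX is not printed because its annotated starts overlap. The stretches below are shown because genes with the same element differed in sign on CSHA, CRELD2 being lower and CALR higher under the spike-in scaling too. Capitals mark the fixed letters, and where the element lies on the opposite strand they read CGTGG and ATTGG.
HSPA5 (chr9:125241351-125241449, minus strand, 66 bases before the start): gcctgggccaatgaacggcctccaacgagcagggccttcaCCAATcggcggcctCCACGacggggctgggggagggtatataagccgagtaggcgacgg
CRELD2 (chr22:49918514-49918612, plus strand, 80 bases before the start): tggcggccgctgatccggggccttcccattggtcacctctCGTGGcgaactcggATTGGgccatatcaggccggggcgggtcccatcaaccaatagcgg
CALR (chr19:12938359-12938442, plus strand, 225 bases before the start): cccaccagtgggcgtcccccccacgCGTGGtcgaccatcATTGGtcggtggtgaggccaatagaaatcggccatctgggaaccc
XBP1 (chr22:28800570-28800661, minus strand, 52 bases before the start): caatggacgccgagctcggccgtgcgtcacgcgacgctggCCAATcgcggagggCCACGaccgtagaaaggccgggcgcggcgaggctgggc
HSP90B1 (chr12:103930176-103930274, plus strand, 194 bases before the start): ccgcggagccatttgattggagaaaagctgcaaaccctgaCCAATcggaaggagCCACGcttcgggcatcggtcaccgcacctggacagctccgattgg

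ATF4 and its partners bind a CEBP-ATF composite site, for which the core TGATGNAA was searched on both strands. It was present in 3 of 25 promoters of the amino acid arm (ASNS, CHAC1 and SLC3A2), in 1 of 24 of the ER arm (HERPUD1) and in 3.62% of all promoters. The lists of tRNA synthetases and of other ATF4 targets had it in 7 of 21 and 12 of 39 promoters. The amino acid arm and these lists were chosen from genes linked to ATF4, so these shares are no result of these arrays. No gene of either arm held both elements. The holders were few, the share of all promoters with both was not counted, and a separation of the elements was not tested. The stretches of ASNS, CHAC1 and HERPUD1 are shown because an ER gene carries there the core found in amino acid genes, and SLC3A2 is not printed because its match lies after the start. Their values on CSHA against TCP were -0.12, -0.43 and -0.44, and with the spike-in scaling 0.31, 0.00 and -0.01. Capitals mark the fixed letters, which on the opposite strand read TT and CATCA.
ASNS (chr7:97872429-97872516, minus strand, 68 bases before the start): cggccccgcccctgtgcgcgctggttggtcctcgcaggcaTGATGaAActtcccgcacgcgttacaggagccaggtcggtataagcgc
CHAC1 (chr15:40953222-40953309, plus strand, 209 bases before the start): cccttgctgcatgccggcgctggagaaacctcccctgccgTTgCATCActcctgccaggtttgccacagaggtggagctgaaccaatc
HERPUD1 (chr16:56931926-56932013, plus strand, 176 bases before the start): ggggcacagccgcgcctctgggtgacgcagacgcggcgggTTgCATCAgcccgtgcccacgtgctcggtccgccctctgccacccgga

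Other genes of the pathways were taken from lists written from general knowledge, with earlier results of these data known. Aminoacyl-tRNA synthetases, which charge tRNAs and many of which ATF4 induces, had a median over 20 genes of 0.00 for CS and -0.01 for CSHA. On CSHA, 4 of the 20 were at least 2-fold lower than on TCP and 0 were higher by that much, against 3.98% and 3.02% of all genes, while on CS there were 0 of either kind. With the spike-in scaling YARS1 was the only one at least 2-fold lower, against 1.25% of all genes. The lowest was YARS1, with signals of 2143, 1822 and 628, or -0.49 on CS and -1.70 on CSHA. AARS1, FARSA and CARS1 were at -1.28, -1.22 and -1.19 on CSHA. QARS1 was highest on CSHA, at 0.45. The list was thus spread widely on CSHA around a median near 0.

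Of 30 other ATF4 targets, 25 had a value against TCP, and their medians of 0.20 on CS and 0.21 on CSHA lay above those of all genes. NUPR1, a small stress-induced chromatin protein, was the highest, with signals of 281, 960 and 974, or 1.52 and 1.86. KLHL24 was at 0.96 and 1.38. The lowest was SLC1A5 (ASCT2), the glutamine importer, with signals of 4913, 3767 and 1440, or -0.64 and -1.70. PPP1R15A (GADD34), which recruits the phosphatase that reverses eIF2 phosphorylation, was at -0.25 and -1.15. CBS, which joins homocysteine to serine, was well above background only on CSHA, and was higher there than on CS by at least 1.002 on the log2 scale. ATF3, induced by ATF4, was higher, at 0.77 and 0.89. Of 14 genes that control eIF2, 13 had a value, with medians of 0.07 and -0.09. PPP1CA, the catalytic subunit that PPP1R15A recruits, was at least 2-fold lower on CSHA, at -1.22. So was EIF2B5, of the exchange factor that phosphorylated eIF2 blocks, at -1.15, against 3.98% of all genes. With the spike-in scaling 0 genes of the list were at least 2-fold lower, against 1.25% of all genes. EIF2B5 was also the lowest on CS, at -0.27. IMPACT, an inhibitor of GCN2, was the highest at 0.37 and 0.82.

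The 24 genes of ER-associated degradation had a median of 0.16 for CS and 0.13 for CSHA. On CS they ran from -0.25 (DERL3) to 0.51 (ERLIN2), and on CSHA from -0.49 (UBE2J2) to 0.86 (ERLIN2). In the main setting 0 of the 24 passed 2-fold against TCP. Of all genes, 1.36% rose and 1.92% fell that far with CS, and 3.02% and 3.98% with CSHA. The spike-in scaling put 2 of the 24 past 2-fold upward on CSHA, against 12.2% of all genes, and 0 downward, against 1.25%. Of 27 folding enzymes 25 had a value, with medians of 0.07 and 0.18. Among them PDIA2, a dim disulfide isomerase with signals of 61.8, 116 and 159, was highest at 0.66 and 1.44, and PDIA6 lowest at -0.39 and -0.90. The 24 genes of the translocon and signal recognition particle had medians of 0.08 and 0.07. SRP68 was the lowest, at -0.40 and -1.58, and TRAM1 the highest, at 0.58 and 0.88. A list of 16 ER genes of secretory cells had the highest medians of these lists, 0.24 on CS over 14 genes and 0.47 on CSHA over 15. AGR3, a disulfide isomerase of secretory epithelia, did not pass the background flag on TCP and rose by at least 3.25 with CS and at least 3.16 with CSHA. KDELR1, which returns chaperones to the ER, was at 0.46 and 1.13. ERN2, the IRE1 paralog of mucus cells, was well above background, unlike ERN1, with signals of 1035, 1385 and 1609, or 0.17 and 0.71. SPDEF, a factor of secretory cells, was the lowest at -0.58 and -0.88. None of these lists was tested.

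**Figure D4:**
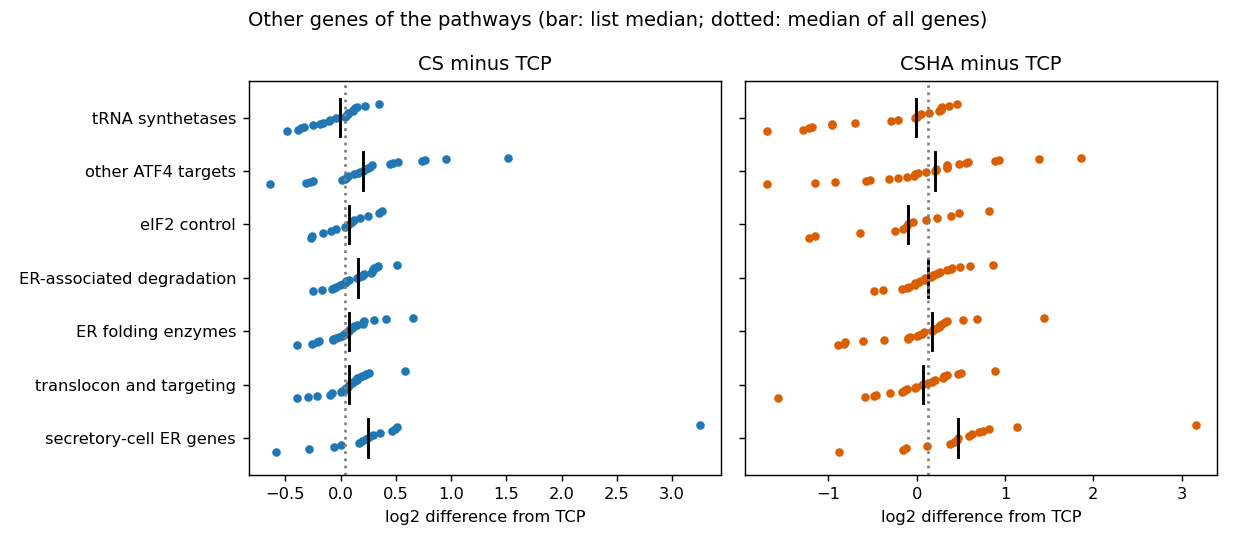
Log2 difference from TCP (x axis) of the genes with a value in 7 lists of other pathway genes (rows) on CS (left) and CSHA (right); each point is a gene, black bars are list medians and dotted lines the medians of all genes. The tRNA synthetases spread down to -1.70 on CSHA around a median of -0.01, and the secretory-cell ER genes have the highest median, 0.47; scaling to spike-in RNA moves all CSHA points and the dotted line up by 0.43 and turns the medians of the tRNA synthetases and of the eIF2 genes positive.

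Scalings that add a constant to an array cannot change the distance between the arms, and so the spike-in scaling and the median centring left it as it was, as did the filter for genes above background on all arrays, which the members with a value all passed. The mean and the median over probes gave the same distance as each other. For CSHA minus TCP, the median of the amino acid arm minus that of the ER arm ran from -0.39 to -0.31 over the main setting and 9 alternatives, for CSHA minus CS from -0.31 to -0.26, and for CS minus TCP from -0.07 to -0.05.

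**Figure D5:**
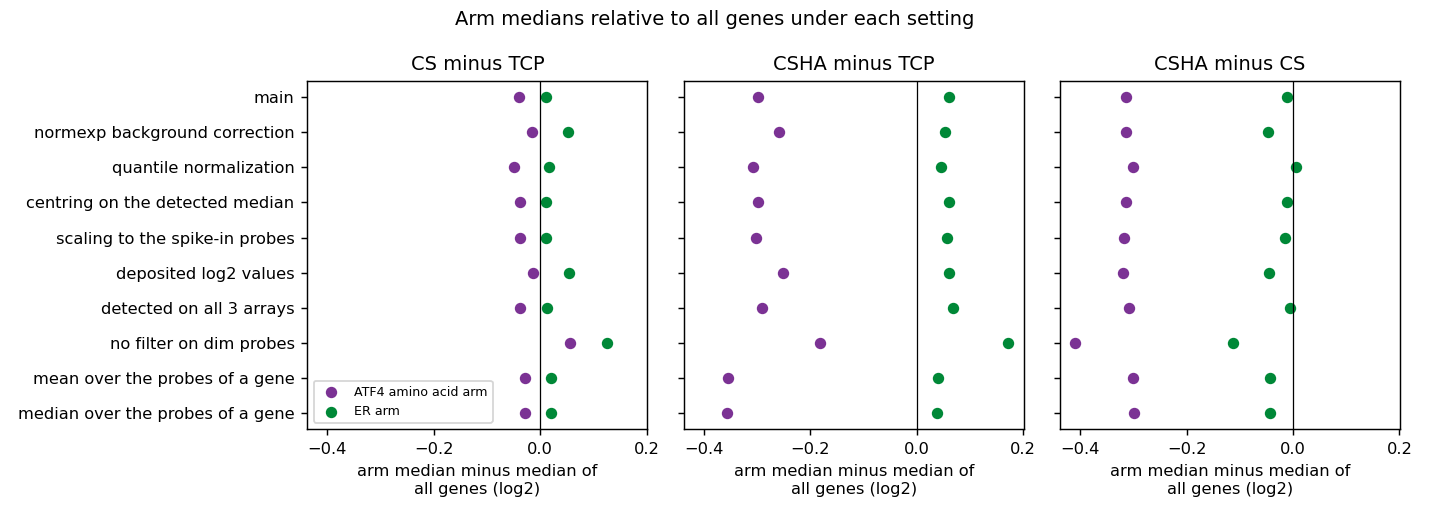
Median of each arm minus the median of all genes (x axis, log2) under the main setting and 9 alternatives (rows), for each pair of arrays. The amino acid arm (purple) lies left of the ER arm (green) in every row, by 0.05 to 0.07 for CS minus TCP and by 0.31 to 0.39 for CSHA minus TCP.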

How the data were processed

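RNA of HT29 cells from TCP, CS and CSHA was hybridized to 1 single-colour Agilent array each, all on 1 slide according to the file headers. The deposited scanner files hold the intensity of each spot with flags, from Feature Extraction 10.7.3.1 per the file headers, while the methods name another version. For RNA extraction, the labels give RNeasy columns and the methods TriPure reagent. The deposited series table holds log2 values that the authors had shifted and centred per spot. Their differences between arrays matched the median spot signal, without background subtraction, plus a constant at all 62976 spots, with deviations of at most 9.85e-08. Here they were an alternative, and all of their columns belonged to a sample.

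Processed signals below a floor of 1 (0 spots) would have been set to it. On the log2 scale, the 75th percentile of the non-control probes of an array was subtracted. The study's methods give the same floor and shift, but for raw signals, whereas the input here was background-corrected. Spots flagged as outliers were left out and spots of a probe averaged. The accessions of 30004 of 50599 probes matched a RefSeq symbol. The precision is limited by 1 array per substrate. A difference needed both arrays well above background. With 1 of them, it is a bound, set against the dim probe itself or the detection limit of its array, whichever was higher. Genes at least 2-fold different were counted. No test was possible, and the calculation was tested on simulated data. The members and lists were chosen with earlier results of these data known. Members named in full were those at least 2-fold different, the 3 highest and lowest of each arm and the regulators. For the other lists the highest, the lowest and those at least 2-fold different were named, with ATF3 and ERN2 added after their values were seen. A result on 1 withheld item is not reported here. Alternatives covered background correction, scaling, dim probes and the choice of probe. Calculations used Python 3.11.15 with pandas 2.3.3 and numpy 2.4.6, and limma 3.58.1 in R 4.3.3 for normexp and quantile normalization.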

Additional observations from a re-analysis of the deposited data

How the results depend on the processing

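With 1 array per substrate, no alternative could leave out a replicate. No paired analysis was possible because each group has 1 sample and no difference was tested. In all, 19 of 141 values of medians and counts moved by more than the spot SD (counts, by more than 1.5 times). Scaling to 7 spike-in probes turned the amino acid median on CSHA to 0.26 against TCP and to 0.13 against CS, and raised the ER median to 0.61 and 0.43. It left 0 members at least 2-fold lower on CSHA than on TCP or CS, and 3 at least 2-fold higher in either comparison, where 12.2% and 6.83% of all genes were. Between CSHA and TCP, the amino acid median was -0.26 with the mean or the median over probes and -0.25 with quantile normalization, which put the ER median at 0.11. Members at least 2-fold lower on CSHA than on TCP numbered 4 in the main setting and 2 with normexp and with the deposited values. With a threshold of 1.5-fold they were 7, and 4 for CSHA against CS, while members higher were 2 on CS and 3 on CSHA against TCP, and 3 on CSHA against CS. Of 972 values of single members under alternatives, 191 moved by more than the spot SD and 51 changed sign, in 26 of which the main value exceeded its spot SD, 19 of these by the spike-in scaling. No member at least 2-fold different changed sign. Genes near the detection limit, such as ERN1, EIF2AK3 and VLDLR, are limited by their signal over background.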
